A study of Mus musculus with 26 samples.

Results

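LY294002 (LY), an inhibitor of the lipid kinase PI3K, was compared with its vehicle DMSO in single mouse inner cell masses (ICMs), and the responses were read across all genes of the deposited table. The comparison holds 12 of the 26 libraries of the series, 7 of ICMs cultured with LY and 5 of ICMs cultured with DMSO, chosen by the treatment that the labels give. All embryos were of the CD-1 strain. E2.75 morulae from timed natural matings were cultured for 24 hours in KSOM, an embryo culture medium, with DMSO, with 10 µM LY, with the growth factor FGF4 plus heparin at 1 µg/ml (FGF4, 8 ICMs) or with LY and FGF4 together (LY+FGF4, 6 ICMs). The last 2 groups enter only where the LY response is set beside the same contrast in the presence of FGF4. The zona pellucida was removed and the outer cells were lysed by immunosurgery, and 1 library was made from each ICM by FLASH-seq, a full-length method for small RNA amounts. Litters were mixed before embryos were assigned, so the litter of a library is not known.

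PI3K makes the membrane lipid PIP3, which recruits the kinase AKT. AKT in turn activates the growth kinase complex mTORC1 and keeps FOXO transcription factors out of the nucleus. In growing cells mTORC1 raises the output of ATF4, a transcription factor for amino acid uptake, serine synthesis and tRNA charging, and of the SREBP factors, which drive the genes of cholesterol and fatty acid synthesis. In the preimplantation ICM, PI3K signalling has been linked to cell survival and to the choice between epiblast and primitive endoderm. LY294002 also acts on other kinases, among them mTOR, casein kinase 2 and the PIM kinases, and on BET bromodomain proteins.

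Values are TPM per gene, transcript abundance scaled to 1000000 per library, so they are shares of a library. The read number behind a library, estimated from the spacing of low TPM values, was 448052 to 1655994 in DMSO and 327806 to 579866 in LY, and only 2 libraries, both DMSO, exceeded 1000000. A gene with a transcript of 2000 bases would need 0.404 to 1.45 TPM in DMSO and 1.14 to 2.11 TPM in LY to be seen with 1 read. Between 10212 and 11367 genes reached 1 TPM in DMSO libraries and 9860 to 10215 in LY libraries, ranges that overlap by 1 library each. Gene profiles of LY libraries resembled each other (median r = 0.852 across genes) about as much as they resembled DMSO libraries (0.859), and DMSO libraries resembled each other slightly more (0.892). The labelled cell type was checked by markers. Pou5f1, a pluripotency factor, averaged 1549 ± 148 TPM (SD, n = 5) in DMSO and 1214 ± 188 (n = 7) in LY, while 8 of 13 markers of immune, blood and endothelial cells, Ptprc and the haemoglobin genes included, and 10 of 12 markers of cumulus and oviduct cells were at 0 in all 12 libraries. The exceptions were Pecam1 (up to 17.7 TPM in DMSO and 54.7 with LY) and Cd68 (up to 12.5 and 14.1), which passed the filter, and Alas2, Cd3e, Kdr, Amh and Star (at most 6.04 TPM), which did not. The keratin Krt8, an outer-cell marker, was present at 345 ± 79.5 TPM in DMSO and 368 ± 123 in LY, and a score over 20 trophectoderm genes (mean log2(TPM + 1)) ranged from 4.33 to 5.36 in DMSO and from 4.27 to 4.91 with LY, overlapping. Transcripts of the Y chromosome were seen at 5 TPM or more in 2 of 5 DMSO and 5 of 7 LY libraries. In whole ICMs, fewer cells of a type and less RNA per cell cannot be told apart.

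More genes were lower than higher with LY. Of 12034 genes tested, 45 passed a Benjamini-Hochberg adjusted p under 0.05 in limma (0.374%), of which 36 were lower (0.299%) and 9 higher (0.0748%) with LY. The 36 include 6 genes, named below, that entered the test only through DMSO, so their calls are no support for a difference. The genes that fell did so by a median of -2.62 on the log2(TPM + 1) scale and the genes that rose by 1.18, and those that rose averaged at least 72.5 TPM in DMSO. Among those that fell were 3 genes of the ATF4 response, 2 of serine and one-carbon metabolism, 1 of cholesterol synthesis and 4 of primitive endoderm, and both ferritin subunits were among those that rose. Across all genes tested the median change was -0.10 and 57.1% of genes were lower, so a list of genes is read against that shift. In 37 of the 45 genes no LY library overlapped any DMSO library. By the same measure 185 genes (1.54%) lay below and 97 genes (0.806%) above all DMSO libraries, most of them without passing the test. A fit of the 12 LY and DMSO libraries alone, which leaves out the more variable FGF4 groups (median r within groups 0.802 and 0.751), called 106 genes lower (0.881%) and 55 higher (0.457%), and 38 of the 45 genes were called in both fits. The 7 whose call ended in that fit were Dusp4, Srl, Pdgfra, Plekhf1, Akr1b8, Gm18856 and Scx (adjusted p from 0.051 to 0.0896). Leaving out 1 library gave 16 genes without DMSO replicate 9, 20 without replicate 3, 27 without replicate 6 and 29 without replicate 8, and 14 of the 45 genes kept their call in all 12 such runs. An unadjusted p under 0.05 was reached by 1034 genes. Below, signed values in parentheses are log2 fold changes on the log2(TPM + 1) scale, "fell" and "rose" refer to the fit of all 26 libraries, and the fit of the 12 is named where a gene passed only there.

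**Figure D1:**
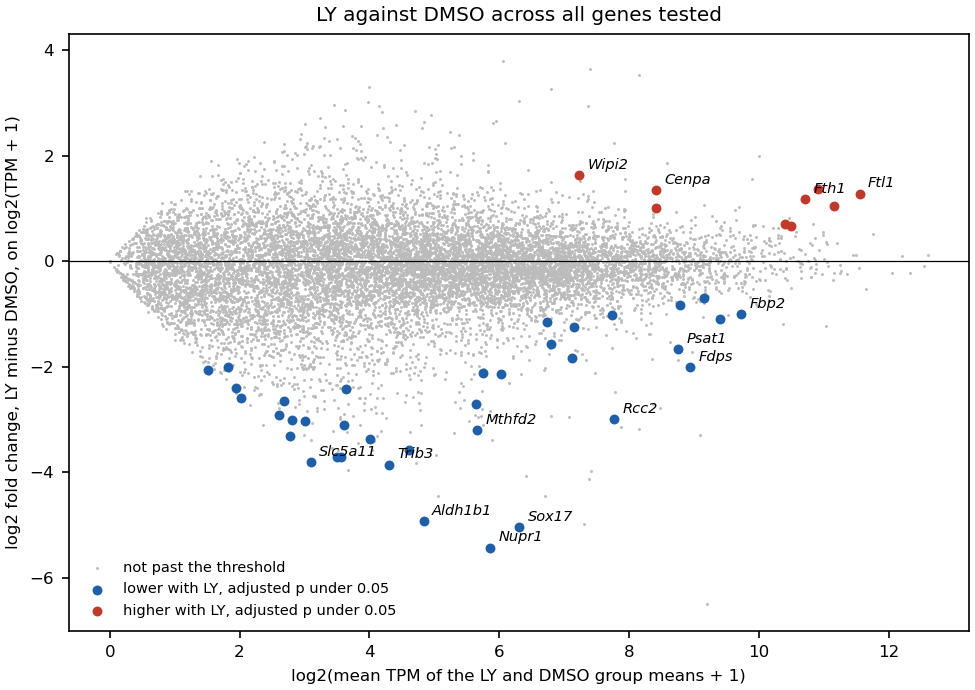
Each point is 1 of 12034 genes, placed by its mean level in LY and DMSO (x axis, log2 of TPM + 1) and its change with LY (y axis, log2 scale). The 36 genes that fell (blue) spread over all levels down to -5.43, and the 9 that rose (red) lie between 0.66 and 1.64 at high levels.

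Among the 45 genes the largest log2 fold change was that of Nupr1, a small stress-induced chromatin protein and a target of ATF4. Its TPM was 82, 29.6, 56.9, 236 and 145 in the 5 DMSO libraries. With LY it was at 0 in 5 of 7 libraries and at 4.11 and 25.7 in the others, below every DMSO library (log2 fold change -5.43, SE 0.85, adjusted p = 0.00127). Trib3, a pseudokinase that binds AKT and is induced by ATF4, was at 65.7, 10.2, 25.6, 36.5 and 37.1 TPM in DMSO and ranged from 0 to 9.89 TPM with a median of 0 with LY (-3.86, adjusted p = 0.0216), again without overlap. The highest LY value, 9.89 TPM, lay within 1 read of the lowest DMSO value, 10.2 TPM. Trib3 lost its call in 3 of 12 runs with a library removed. Chac1, which degrades glutathione and is also induced through ATF4, was at 29.9, 4.31, 18.1, 13.2 and 33.5 TPM in DMSO. It was at 0 in 6 of 7 LY libraries and at 5.64 in LY replicate 6, above the lowest DMSO value (-3.72, adjusted p = 0.00127). On these 3 genes 1 read was worth 2.8 to 5.13, 2.27 to 4.11 and 1.41 to 2.6 TPM in LY libraries, so the lowest DMSO library stood several reads above a zero for Nupr1 and only a few reads above it for Trib3 and Chac1.

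Promoter sequence is shown for the 4 of these and the following genes that share 1 ATF4-type motif, since they are the ones in which the change and the letters can be seen together. C/EBP-ATF composite elements, which ATF4 binds with a C/EBP partner, are commonly written TGATGCAA, and its reverse complement is TTGCATCA. Each line gives 80 bases from the region upstream of the annotated start (RefSeq, GRCm38.p6), read 5′ to 3′ along the gene's strand, with the motif in capitals.
Nupr1: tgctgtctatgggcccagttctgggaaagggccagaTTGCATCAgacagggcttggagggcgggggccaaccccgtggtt
Chac1: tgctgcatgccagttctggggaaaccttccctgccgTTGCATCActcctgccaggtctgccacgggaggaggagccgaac
Tars: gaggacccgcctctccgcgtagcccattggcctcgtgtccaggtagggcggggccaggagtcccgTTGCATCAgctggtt
Hax1: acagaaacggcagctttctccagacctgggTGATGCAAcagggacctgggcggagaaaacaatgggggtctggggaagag
The windows are chr7:126625537-126625616 on the minus strand for Nupr1, chr2:119351013-119351092 on the plus strand for Chac1, chr15:11399659-11399738 on the minus strand for Tars and chr3:89998274-89998353 on the minus strand for Hax1. Motifs began 110, 193, 15 and 220 bases before the start, in that order. The letters TGATGCAA on either strand were found in the promoters (250 bases before to 50 after the start) of 4 of the 26 genes that fell and have a RefSeq promoter entry, in 0 of the 9 that rose, and in 59 of 9090 tested genes with an entry (0.649%). With the sixth base left free (TGATGNAA) the counts were 6 of 26, which adds Trib3 and Anp32b, 0 of 9, and 222 of 9090 (2.44%). In the 54 tested genes with an entry from the ATF4, serine, transporter and tRNA synthetase lists below, TGATGCAA was found in 9 (16.7%), but such lists hold genes already known as ATF4 targets. None of 15 cholesterol synthesis genes with an entry had it. Most of the 59 tested genes with TGATGCAA were not among those that fell, and the 4 sequences are shown because those genes had both. A match is a description of letters and no measure of binding.

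Of 15 tested genes of the ATF4 stress response, 3 fell (Nupr1, Trib3 and Chac1) and 0 rose, 12 were lower, and the median change was -1.02 against -0.10 over all genes. Over all genes tested 0.299% fell, the share beside which counts of list members that fell stand here and below. The transcript of Atf4 itself was at 182, 213, 210.3, 168 and 137 TPM in DMSO and ranged from 51 to 123 TPM with a median of 95.4 with LY. No LY library reached the lowest DMSO value, but Atf4 passed only in the fit of the 12 libraries (log2 fold change -1.02, adjusted p = 0.298, and 0.0445 in that fit). The list did not move as a block. Asns, which makes asparagine and is a classical ATF4 target, was at 235 ± 136 TPM in DMSO and 192 ± 116 with LY (-0.19, adjusted p = 0.984). Sesn2, Eif4ebp1 and Ppp1r15a, others of this set, had changes of -0.04, 0.05 and 0.11 and adjusted p of 0.998, 0.991 and 0.994. Ddit3, which encodes the stress factor CHOP, was at 11.8 ± 7.02 and 3.63 ± 6.04 TPM (-1.90, adjusted p = 0.67).

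A gene each of serine synthesis and of the mitochondrial folate pathway fell. Mthfd2, the mitochondrial enzyme that passes 1-carbon units from serine to formate, was at 86.7, 37, 102, 114 and 107 TPM in DMSO and ranged from 1.37 to 16.3 TPM with a median of 10.6 with LY, a 9.23-fold lower mean (-3.20, SE 0.46, adjusted p = 0.000685). Psat1, the second enzyme of serine synthesis, was at 751, 554, 689.8, 607 and 638 TPM in DMSO and ranged from 129.7 to 385 TPM with a median of 178 with LY (-1.66, adjusted p = 0.0045). Neither gene overlapped between the groups, and neither lost its call when any 1 of the 12 libraries was left out. Phgdh, the first enzyme of the same pathway, was at 223, 190.2, 105, 107 and 173 TPM and ranged from 13.4 to 97.1 TPM with a median of 45.7 with LY, without overlap, and passed only in the fit of the 12 libraries (-2.07, adjusted p = 0.105, and 0.0367 in that fit). Of 16 genes of serine and one-carbon metabolism 2 fell, 12 were lower, and the median was -0.87.

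**Figure D2:**
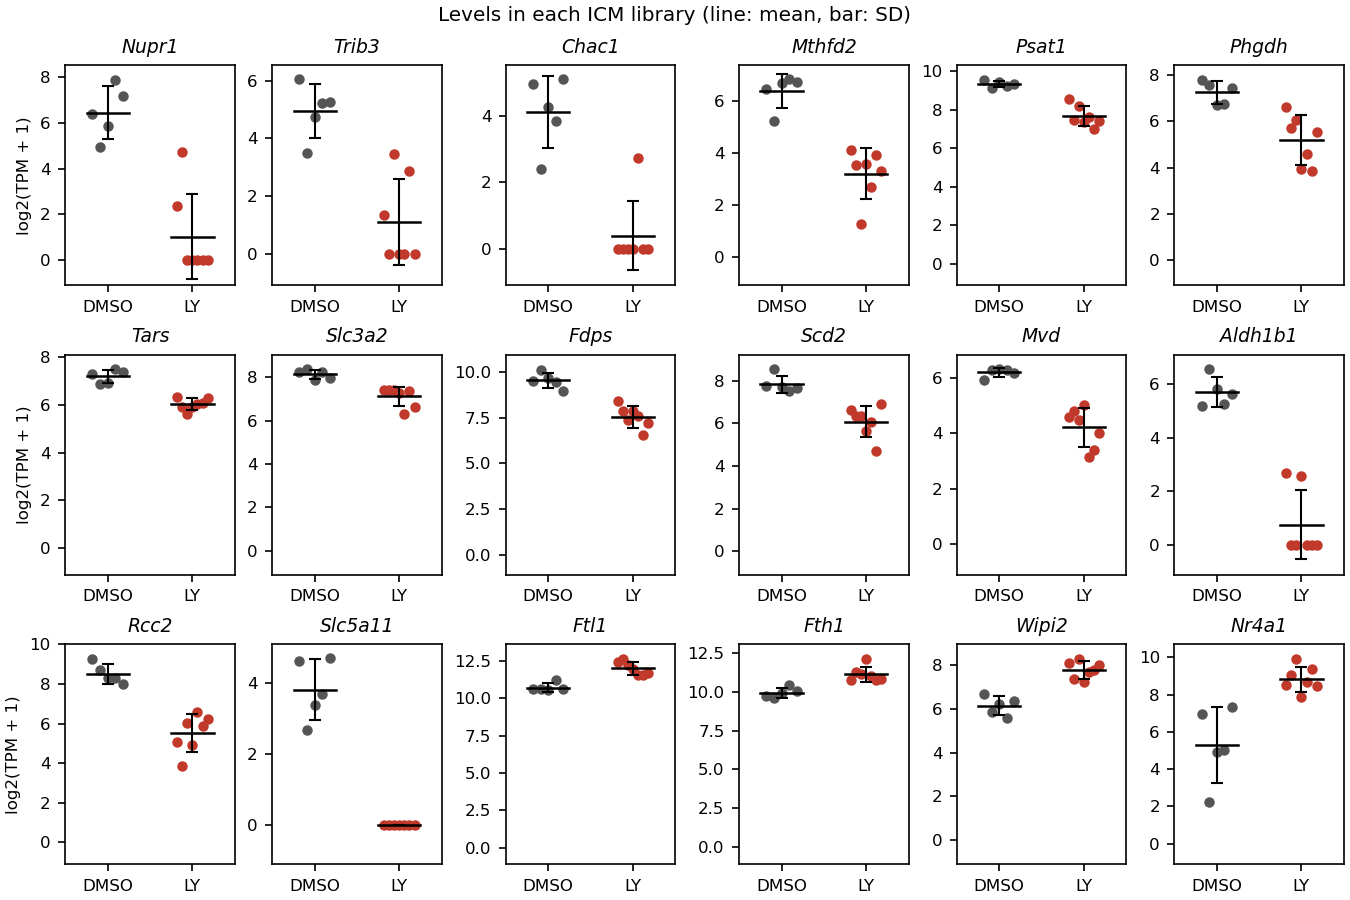
Points are single ICM libraries, grey for DMSO and red for LY, on log2(TPM + 1) axes, with the group mean (line) and SD (bar). Nupr1, Trib3, Mthfd2, Psat1, Fdps and Rcc2 show LY libraries below all DMSO libraries, and Ftl1, Fth1, Wipi2 and Nr4a1 show them above.

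Among amino acid transporters and tRNA-charging enzymes 1 gene each fell. Slc3a2, the heavy chain shared by several amino acid exchangers, was at 303, 328, 231, 302 and 247 TPM in DMSO and ranged from 78.2 to 169.6 TPM with a median of 164 with LY, without overlap (-1.02, adjusted p = 0.0225). Slc7a1, a transporter of cationic amino acids, averaged 12.2 ± 7.72 TPM in DMSO and 0.884 ± 0.641 with LY and passed only in the fit of the 12 libraries (-2.64, adjusted p = 0.143, and 0.0245 in that fit). Slc7a7, a light chain that pairs with Slc3a2, averaged 14.2 ± 6.58 and 2.16 ± 3.29 TPM and passed in neither (adjusted p = 0.147 and 0.0522). Of 16 transporters tested 1 fell, 14 were lower and the median was -0.78.

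Tars, the threonyl-tRNA synthetase, was at 154, 115, 119, 179 and 166 TPM in DMSO and ranged from 48.3 to 80 TPM with a median of 63.7 with LY, without overlap (-1.16, SE 0.24, adjusted p = 0.0243). Aars, Yars and Cars, which charge alanine, tyrosine and cysteine tRNAs, passed only in the fit of the 12 libraries. Their mean TPM went from 181 ± 77.9 to 64.6 ± 19, from 388 ± 38.4 to 191 ± 61.5 and from 81.6 ± 22.4 to 27.8 ± 10.7 (adjusted p = 0.0342, 0.0351 and 0.0191 in that fit). Of 20 cytosolic synthetases 19 were lower, 1 of them past the threshold, with a median of -0.50. The 17 tested mitochondrial synthetases, which serve the mitochondrial ribosome, had a median of -0.11, which is close to that of all genes. Herpud1, a membrane protein of the endoplasmic reticulum (ER) that responds to ER stress and to ATF4, averaged 65.3 ± 19.7 TPM in DMSO and 12.6 ± 10.8 with LY without overlap, and passed in the fit of the 12 libraries (adjusted p = 0.0238). No other gene of its list passed in either fit. Of 25 chaperone and unfolded protein response genes 8 were lower, 0 passed in limma (1 at an unadjusted p under 0.05), and the median was 0.12.

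Cholesterol synthesis had the lowest median of the 34 lists described. Of its 20 genes 19 were lower with LY, at a median of -1.39. Of the 20, 8 lay below every DMSO library (among them Fdps, Mvd, Fdft1, Sqle, Cyp51 and Nsdhl), against 1.54% of all genes tested. Only 1 passed the test, against 0.299% of all genes tested that fell. That was Fdps, the enzyme that makes farnesyl diphosphate, the branch point to sterols and to protein prenylation. Its TPM was 745, 1136, 815, 703 and 510.5 in DMSO and ranged from 94 to 346 TPM with a median of 191 with LY (-2.01, SE 0.45, adjusted p = 0.0353), and it lost its call in 9 of 12 runs with a library removed. Mvd, which makes isopentenyl diphosphate, averaged 73.1 ± 8.15 TPM in DMSO and 19.4 ± 8.82 with LY without overlap, and passed only in the fit of the 12 libraries (-1.99, adjusted p = 0.105, and 0.012 in that fit). The 1 member with a positive value was Ebp (0.15), and Hmgcs1, an early enzyme of the pathway, was at 463 ± 138 and 411 ± 133 TPM (-0.18, adjusted p = 0.982).

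Regulators and neighbours of this pathway are given next. Insig1, an ER protein that retains SREBP and is itself a target of SREBP, was at 315, 549.9, 366, 369.5 and 301 TPM in DMSO and ranged from 55.5 to 435 TPM with a median of 103 with LY (-1.45, adjusted p = 0.108). The groups overlapped. Srebf2, the gene of SREBP2, averaged 171 ± 17.4 and 104 ± 34.4 TPM (-0.77, adjusted p = 0.488). Of 9 tested genes that regulate or respond to SREBP2, 6 were lower and 0 passed (3 at an unadjusted p under 0.05, median -0.53). Among 18 genes of fatty acid synthesis 15 were lower with a median of -0.29, and 0 passed with all libraries (5 at an unadjusted p under 0.05). Scd2, a stearoyl-CoA desaturase, was at 216, 368, 203, 183 and 200 TPM and ranged from 25 to 117 TPM with a median of 78.9 with LY, without overlap, and passed in the fit of the 12 libraries (-1.75, adjusted p = 0.0172). Its relative Scd1 averaged 273 ± 58.8 and 82.5 ± 59.1 TPM, also without overlap, and passed in neither fit (adjusted p = 0.0795 and 0.0534). Fads2, a desaturase of polyunsaturated fatty acids, averaged 21 ± 17.4 and 2.12 ± 4.26 TPM and passed in the fit of the 12 libraries (adjusted p = 0.0351).

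**Figure D3:**
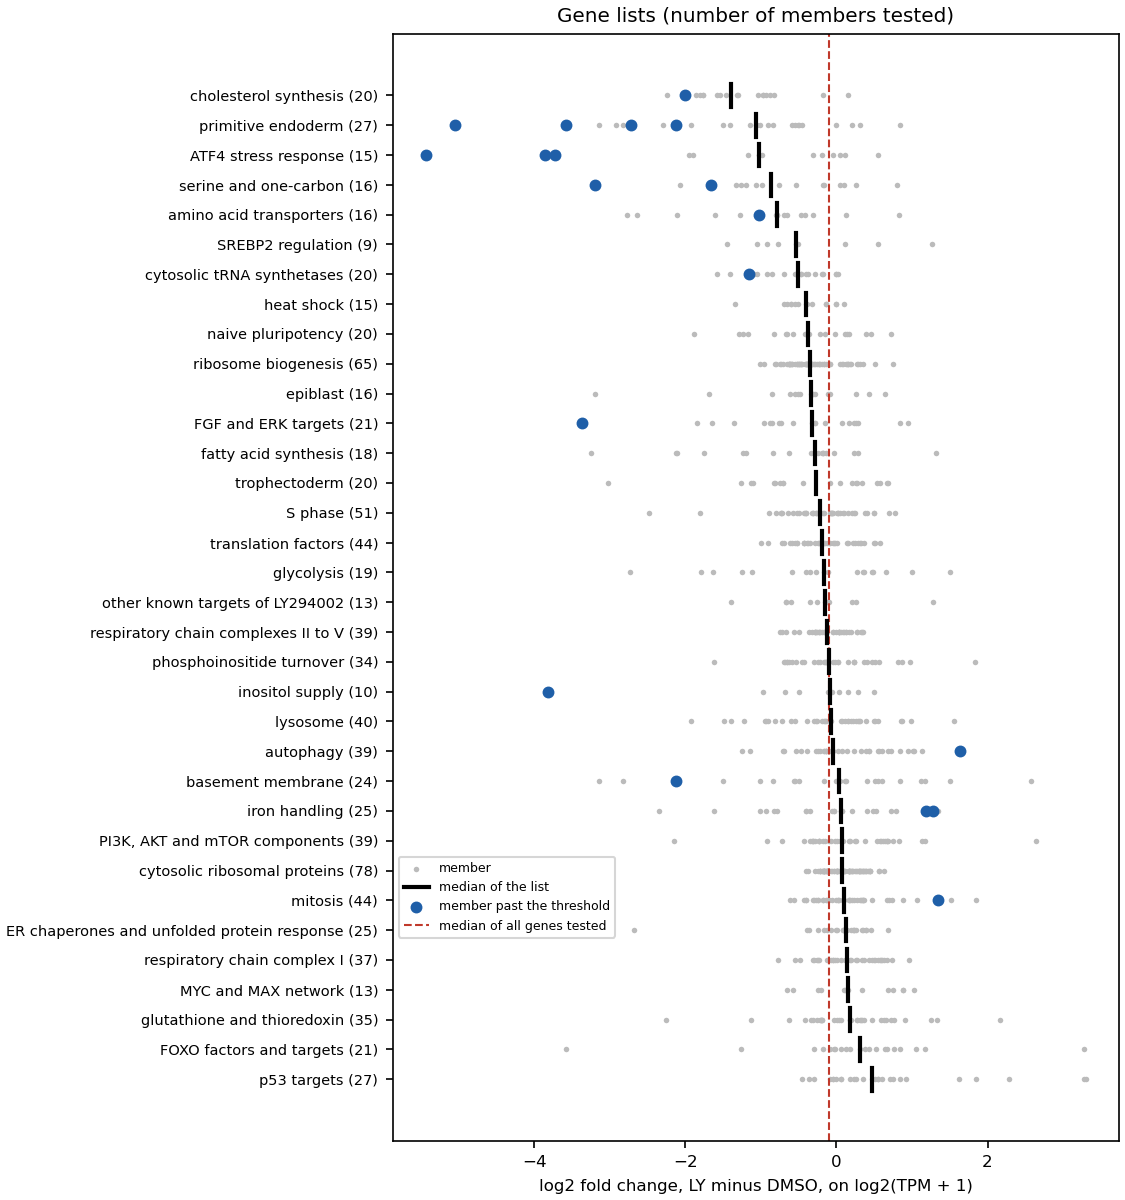
Each row is a gene list with its number of tested members, grey points are members, blue points are members that passed the test, and black bars are list medians on the log2 fold change axis. The cholesterol, primitive endoderm, ATF4, serine and amino acid transporter lists have medians between -1.39 and -0.78, to the left of the median of all genes (red dashes, -0.10), and the p53 target list has its median at 0.47.

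Several other enzymes fell one by one. Aldh1b1, a mitochondrial aldehyde dehydrogenase, was at 34.9, 93, 54.6, 37 and 48.4 TPM in DMSO, and with LY it was at 0 in 5 of 7 libraries and at 5.36 and 4.98 in the others (-4.93, SE 0.81, adjusted p = 0.00225). Fbp2, a fructose bisphosphatase that works against glycolysis, was at 1121, 997, 1107, 1272 and 1122 TPM and ranged from 413 to 763 TPM with a median of 548 with LY (-1.01, adjusted p = 0.0045). Both were free of overlap and kept their calls whichever library was left out. Slc25a5, the main ADP/ATP carrier of growing cells, averaged 914 ± 229.8 and 431 ± 111 TPM (-1.09, adjusted p = 0.0264). Hax1, a mitochondrial survival factor, averaged 197 ± 38.3 and 86 ± 30.4 TPM (-1.24, adjusted p = 0.0434), and Akr1b8, an aldo-keto reductase, 99.7 ± 39.9 and 28.4 ± 22.5 TPM (-2.14, adjusted p = 0.045). Akr1b8 lost its call in 9 of 12 runs with a library removed. Lists of energy metabolism gave no calls with all libraries. Of 19 glycolysis genes 0 passed (7 at an unadjusted p under 0.05, median -0.17), of 37 complex I genes 0 (7, median 0.14), and of 39 genes of complexes II to V 0 (3, median -0.12). In the fit of the 12 libraries, 1 of these genes passed, the muscle-type phosphofructokinase Pfkm, which was at 0 in 6 of 7 LY libraries against 6.76 ± 2.57 TPM in DMSO (adjusted p = 0.00679). Whether Pfkm entered the test only through DMSO was not checked.

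Rcc2, which acts in chromosome alignment, cytokinesis and the control of Rac GTPases, was among the abundant genes that fell. It was at 615, 421, 313, 309.7 and 257 TPM in DMSO and ranged from 13.7 to 96.1 TPM with a median of 58.5 with LY, a 7.26-fold lower mean (-2.99, SE 0.45, adjusted p = 0.00102). Cdk2ap1, an inhibitor of CDK2 that also belongs to the NuRD complex, was at 222, 165, 302, 135 and 245 TPM and ranged from 32.5 to 114 TPM with a median of 49.1 with LY (-1.84, adjusted p = 0.00586). Neither overlapped. Rcc2 lies on chromosome 4 from 140700541 to 140723220 and Cdk2ap1 on chromosome 5 from 124345417 to 124363082 (GENCODE M21, GRCm38), both protein-coding.

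Genes of modest level in DMSO were at 0 with LY. Slc5a11, a sodium-dependent transporter of inositol, the precursor of the phosphoinositides that PI3K acts on, was at 23.5, 5.36, 9.5, 11.9 and 25.4 TPM in DMSO and at 0 in all 7 LY libraries (-3.82, adjusted p = 0.0156). Since 1 read of this gene was worth 2.37 to 4.28 TPM in LY libraries, levels like those of the 2 highest DMSO libraries would have given several reads there. Those 2 are also the deepest libraries, and the other DMSO values, 5.36, 9.5 and 11.9 TPM, stand for fewer reads. In limma Slc5a11 did not pass with estimated reads as a covariate (adjusted p = 0.357) or without the 2 deepest DMSO libraries (0.231). The other 9 tested genes of inositol supply did not pass (list median -0.08), among them Isyna1, the first enzyme of inositol synthesis, at 980.1 ± 281 and 729.6 ± 377 TPM. Epha10, an ephrin receptor, Capsl and Eid1 were also at 0 in all 7 LY libraries, from means of 6.1 ± 4.67, 5.67 ± 5.7 and 3.69 ± 2.64 TPM in DMSO. For these, 1 read was worth 0.852 to 1.59, 2.93 to 5.4 and 1.36 to 2.51 TPM in LY libraries, so for Capsl and Eid1 a loss and a level under detection cannot be told apart. The lowest DMSO value of Epha10, 1.41 TPM, is also within the worth of 1 read. Its highest, 14 TPM, is in DMSO replicate 9, the deepest library. With estimated reads as a covariate in limma, Epha10 did not pass (adjusted p = 0.337). Capsl, Epha10, Eid1, Srl, Gm18856 and Scx, 6 of the 45 genes, reached 1 TPM in fewer than 5 libraries outside DMSO. They entered the test only through the group in which they were higher, so their calls are no support for a difference. No ratio of means is given for genes at 0 throughout LY, and the log2 fold change of Slc5a11 depends on the 1 TPM added before the log.

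Further genes that fell were Saa3, an acute-phase apolipoprotein (20.9 ± 15.7 TPM in DMSO, 0.796 ± 2.11 with LY), Scrn2 (11.4 ± 3.49 and 0.373 ± 0.986), Srl (21.6 ± 21.8 and 0.687 ± 1.82), Plekhb2 (13.8 ± 11.5 and 0.263 ± 0.47), Plekhf1 (19.2 ± 4.41 and 3.82 ± 3.47) and Eml1, a microtubule-associated protein (11.1 ± 2.85 and 0.843 ± 1.46). Of these Scrn2 kept its call whichever library was left out, and Eml1 lost it in 1 of 12 runs. Plekhb2 lost its call in 7 of 12, and Saa3, Srl and Plekhf1 each in 9 of 12. Avpi1 fell from 163 ± 18 to 57.6 ± 22.8 TPM and lost its call in 4 of 12 runs. Lrrc59, a ribosome-binding protein of the ER, fell from 557 ± 43.5 to 319 ± 73.9, and Anp32b, a histone chaperone, from 704 ± 78 to 432 ± 38.4. The last change was small (-0.70), yet no LY library reached the lowest DMSO library (LY 379 to 487, DMSO 572 to 762 TPM; adjusted p = 0.0159). Scx, which overlaps another gene on the annotation, and 2 predicted genes, Gm53 and Gm18856, complete the genes outside primitive endoderm and ERK signalling. Reads of overlapping genes (Scx, Eid1 and Lrrc59) may not be assigned to 1 of them alone.

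Both subunits of ferritin, the iron storage protein, rose. Ftl1, the light chain, was at 1564, 1606, 1504, 2373 and 1577 TPM in DMSO and ranged from 3035 to 6302 TPM with a median of 4077 with LY, a 2.49-fold higher mean (1.28, SE 0.18, adjusted p = 0.000685). Fth1, the heavy chain, was at 852, 758, 952, 1373 and 1071 TPM and ranged from 1714 to 4344 TPM with a median of 2081 with LY, a 2.34-fold higher mean (1.18, SE 0.23, adjusted p = 0.0159). The groups overlapped for neither gene, and Ftl1 kept its call whichever library was left out. Ferritin genes have processed copies: Ftl1-ps1 was at 87.9 TPM in DMSO and 61.8 with LY, and the assignment of reads among the copies was not stated. Among the other 23 tested genes of iron handling 0 passed. Blvrb, a biliverdin reductase, averaged 96.2 ± 37.2 and 249 ± 103 TPM and passed in the fit of the 12 libraries (adjusted p = 0.0263), and Tfrc, the transferrin receptor, averaged 20.5 ± 6.88 and 29.1 ± 6.56 (0.53, adjusted p = 0.9). Of 35 genes of glutathione and thioredoxin metabolism 0 passed (6 at an unadjusted p under 0.05, median 0.19), with the peroxiredoxin gene Prdx1 at the smallest p (0.66, adjusted p = 0.103).

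Wipi2, which binds the PI3P made by the class III kinase and recruits the autophagy conjugation machinery, was at 102, 58.2, 74, 46.5 and 82 TPM in DMSO and ranged from 149.6 to 315 TPM with a median of 217 with LY, without overlap (1.64, SE 0.31, adjusted p = 0.0105). Ulk1, the kinase that starts autophagy and is held back by mTORC1, was at 108, 123, 122, 135 and 166 TPM and ranged from 246 to 283 TPM with a median of 262 with LY. The groups did not overlap, and Ulk1 passed in the fit of the 12 libraries (1.02, adjusted p = 0.00591) but not with all libraries (adjusted p = 0.324). The protease Atg4b averaged 549.9 ± 181 and 1111 ± 343 TPM (adjusted p = 0.0495 in the fit of the 12 libraries). No other autophagy gene passed with all libraries. Of 39 tested, 20 were lower and the list median was -0.04. In the lysosome list Ctsc, a cathepsin, was at 399, 739, 642, 278 and 398 TPM and ranged from 910.1 to 1931 TPM with a median of 1521 with LY, without overlap, just missing the threshold with all libraries (1.55, adjusted p = 0.0508) and passing in the fit of the 12 (adjusted p = 0.00849). None of the 40 lysosomal genes passed with all libraries (4 at an unadjusted p under 0.05), and their median was -0.08.

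Cenpa, the histone variant of the centromere, averaged 182 ± 27.4 TPM in DMSO and 497 ± 179.6 with LY (1.35, adjusted p = 0.0207). One LY library, at 187, lay within the DMSO range, and 6 lay above it. The remaining 43 mitosis genes did not pass (list median 0.09). Arl6ip1, which shapes ER tubules, was at 811, 782, 1315, 1026 and 1484 TPM and ranged from 1923 to 3393 TPM with a median of 2917 with LY (1.37, adjusted p = 0.00413). Rogdi averaged 1470.1 ± 391 and 3104 ± 973 TPM, Aplp2, an amyloid precursor-like protein, 229 ± 62.6 and 455 ± 86.9, Mlf2 1045 ± 263 and 1677 ± 147, and the tetraspanin Cd9 1119 ± 182 and 1765 ± 217. None of these 5 apart from Arl6ip1 kept its call under every removal of 1 library, Rogdi, Mlf2 and Cd9 losing it in 8 of 12 runs and Aplp2 in 7 of 12.

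Transcripts of the pathway that LY inhibits did not pass the test. Of 39 tested genes of the PI3K, AKT and mTOR pathway 0 passed in either limma fit (4 at an unadjusted p under 0.05), and the median was 0.08. Pik3ca, the catalytic subunit p110 alpha, averaged 0.966 ± 0.934 TPM in DMSO and 2.41 ± 1.63 with LY, and the regulatory subunit Pik3r1 12.9 ± 6.11 and 21.1 ± 12.4. Akt1 averaged 73.4 ± 16.5 and 78.2 ± 18.3 TPM, Akt2 71.6 ± 4.9 and 63.2 ± 18.5, and Mtor 4.45 ± 2.12 and 5.27 ± 1.56. At levels of a few TPM, as in Pik3ca and Mtor, 1 to a few reads stand behind a value. Tbc1d7, a subunit of the TSC complex that restrains mTORC1, and Pik3cb had the smallest p among those with a fall and a rise, at -2.14 (adjusted p = 0.365) and 1.14 (0.456). The 13 tested genes of other proteins that LY binds gave 0 calls (1 at an unadjusted p under 0.05, median -0.14), and so did 34 genes of phosphoinositide turnover (3, median -0.09).

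FOXO targets are genes that PI3K activity keeps low in many cells. Of 21 tested FOXO genes and targets 0 passed with all libraries (3 at an unadjusted p under 0.05), 7 were lower and the median was 0.32. Foxo1 averaged 6.25 ± 2.35 and 9.05 ± 4.75 TPM and Foxo3 136 ± 37.4 and 174 ± 37.3, while Irs2, a textbook FOXO target, was at 0 in all DMSO libraries and in 5 of 7 LY libraries and was not tested. Cdkn1a and Gadd45a, which p53 and stress signals also induce, had changes of opposite sign. Cdkn1a, the cell cycle inhibitor p21, was at 51.7, 75.6, 0, 19.9 and 17.1 TPM in DMSO and ranged from 47.8 to 310.4 TPM with a median of 196 with LY, higher in 6 of 7 LY libraries than in any DMSO library (3.27, adjusted p = 0.147, and 0.0608 in the fit of the 12 libraries). Gadd45a, a growth arrest gene, averaged 27.9 ± 21.1 and 2.93 ± 5.9 TPM and was lower in the fit of the 12 libraries (-3.58, adjusted p = 0.0381). Of 27 p53 targets 20 were higher, 0 passed with all libraries (4 at an unadjusted p under 0.05), and the median was 0.47 (0.38 with estimated reads as a covariate, against 0.05 over all genes). Plk2, a kinase induced by p53 and by immediate early signals, was at 2.87, 7.21, 0, 1.83 and 0 TPM and ranged from 9.27 to 66.1 TPM with a median of 22.4 with LY, without overlap (3.30, adjusted p = 0.26, and 0.0169 in the fit of the 12 libraries).

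The fit of the 12 libraries called 123 genes that the fit of all libraries did not, 91 of them without overlap, and those with the largest changes were picked out after their values were seen. Nr4a1, an orphan nuclear receptor and immediate early gene, was at 122, 3.65, 29.7, 31.4 and 159 TPM in DMSO and ranged from 235 to 961 TPM with a median of 412 with LY, a 7.23-fold higher mean without overlap (3.54, adjusted p = 0.0972, and 0.0188 in that fit). Fbxo2, a ubiquitin ligase subunit for glycoproteins, averaged 36.3 ± 23.3 and 293 ± 207 TPM (adjusted p = 0.0168), Nrg1, a ligand of ERBB receptors, 3.4 ± 3.27 and 30.2 ± 21 (adjusted p = 0.0226), Herc3 1.72 ± 0.863 and 27.9 ± 23.6 (adjusted p = 0.0191), and the ephrin receptor Epha7 8.19 ± 7.69 and 51.5 ± 25.1 (adjusted p = 0.0238). The AP-1 subunit Jun averaged 23.4 ± 11.6 TPM and 88.4 ± 42.7 (1.83, adjusted p = 0.0307 in that fit). Among the lower genes were Slc16a13, a monocarboxylate carrier (56.7 ± 26.6 and 7.71 ± 16.2 TPM), the non-coding Eprn (22.1 ± 9.13 and 1.4 ± 3.72), Ube2l6 (45 ± 26.9 and 5.46 ± 10.1), Cmbl (41.8 ± 19.8 and 3.55 ± 3.52) and P2rx3, at 0 in all LY libraries from 20.8 ± 20.6 TPM. Entry into the test through 1 group alone was counted for the 45 genes and not for these 123. The call of P2rx3, at 0 throughout LY, is thus given without that check.

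Lists of the growth machinery gave no calls with all libraries. Of 65 ribosome biogenesis genes 50 were lower and 0 passed (7 at an unadjusted p under 0.05, median -0.35), with Dkc1, a pseudouridine synthase of ribosomal RNA, at 615 ± 141 and 393 ± 172 TPM (adjusted p = 0.358). The list score, the mean log2(TPM + 1) over members, ranged from 6.69 to 6.88 in DMSO and from 6.28 to 6.60 with LY, without overlap. The space between the groups was narrower than the median shift over all genes (-0.10), so the lack of overlap is not particular to this list. The 78 cytosolic ribosomal protein genes had a median of 0.08, with 26 lower and 0 past the threshold (6 at an unadjusted p under 0.05). Translation factors had a median of -0.19 (44 tested, 0 past the threshold, 11 at an unadjusted p under 0.05), and 14 of 15 heat shock and chaperonin genes were lower (median -0.40, 0 past the threshold, 4 at an unadjusted p under 0.05), with the mitochondrial chaperonin Hspd1 at 1336 ± 67.3 and 933 ± 173 TPM (-0.54, adjusted p = 0.0795). Of 51 S phase genes 35 were lower (median -0.22, 0 past the threshold, 8 at an unadjusted p under 0.05). Tk1, the thymidine kinase of dividing cells, was at 395, 359, 452, 284 and 309 TPM and ranged from 33.5 to 183 TPM with a median of 41.7 with LY, without overlap, and passed in the fit of the 12 libraries (-2.48, adjusted p = 0.00747), as did the flap endonuclease gene Fen1 (291 ± 44.8 and 160.4 ± 42.1 TPM, adjusted p = 0.0493). Myc averaged 146 ± 96.3 and 110.1 ± 56.3 TPM (adjusted p = 0.991), and 0 of 13 genes of its network passed (0 at an unadjusted p under 0.05).

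Lineage genes are given briefly. Of 27 primitive endoderm genes 4 fell, the transcription factors Sox17 and Lmo2, the receptor Pdgfra and the matrix protein Sparc, 23 were lower, and the median was -1.06. Sox17 was at 69, 110, 11.7, 299 and 266 TPM in DMSO and ranged from 0 to 21 TPM with a median of 0 with LY (-5.05, adjusted p = 0.000884). Its groups overlapped, and it kept its call whichever library was left out. Pdgfra (-2.71, adjusted p = 0.0455) lost its call in 10 of 12 runs that left a library out and in the fit of the 12 libraries (adjusted p = 0.0784). Lmo2, a LIM-domain cofactor, was at 25.9, 44, 25.2, 68.5 and 46.2 TPM in DMSO and ranged from 0 to 13.9 TPM with a median of 2.03 with LY (-3.58, adjusted p = 0.021). Lamb1, a laminin chain of the basement membrane, was at 321, 232, 486, 633 and 382 TPM and ranged from 11.8 to 134 TPM with a median of 35.4 with LY, without overlap, and passed in the fit of the 12 libraries (-3.15, adjusted p = 0.00991). Over the 24 basement membrane genes, Sparc and Lamb1 included, the median was 0.04 and 11 were lower. Of 21 FGF and ERK targets Dusp4 alone fell (28.4 ± 20 and 1.9 ± 3.61 TPM, adjusted p = 0.0228, and 0.0607 in the fit of the 12 libraries), losing its call in 5 of 12 runs, and the median was -0.32. No epiblast, naive pluripotency or trophectoderm gene of the lists passed with all libraries (medians -0.33, -0.38 and -0.27, with 3 of 16, 4 of 20 and 2 of 20 at an unadjusted p under 0.05). In the fit of the 12 libraries 1 naive pluripotency gene was called lower. Cdx2, a transcription factor of outer cells, was at 178, 153, 29.1, 16.2 and 41.6 TPM in DMSO and ranged from 1.26 to 11.2 TPM with a median of 7.26 with LY, without overlap, and passed in the fit of the 12 libraries (adjusted p = 0.0235) and not with all libraries (adjusted p = 0.455), while Krt8 (0.05) and Krt18 (-0.45) stayed far from the threshold and Tfap2c was above all DMSO libraries (55.3 ± 9.17 and 81 ± 15 TPM). With the trophectoderm score as a covariate in the fit of all libraries, 9 of the 45 genes lost their call. Beyond that fit, the part of residual outer cells in the values of this paragraph was not tested.

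The same inhibitor was also given with FGF4, in 6 ICMs that can be set against 8 with FGF4 alone. LY against DMSO uses neither group's mean, but both groups enter the filter on low values and the shared estimate of the spread. There 340 genes were lower (2.83%) and 87 higher (0.723%). This split turned to 74 lower and 113 higher when the number of genes at 1 TPM was a covariate, and a fit of these 14 libraries alone called 73 genes. Of the 45 genes that changed without FGF4, 40 had the same sign with it and 21 passed in the same direction, 15 lower and 6 higher, which is 46.7% of the 45 and 4.92% of the 427 genes called with FGF4. Nupr1 (-6.08, adjusted p = 3.72e-05), Chac1 (-5.56, 3.96e-07), Trib3 (-4.86, 0.000287), Mthfd2 (-2.82, 0.000264), Psat1 (-1.63, 0.000658) and Aldh1b1 (-3.65, 0.00555) fell there too. Tars, Slc3a2, Slc25a5, Hax1, Anp32b, Fdps, Akr1b8, Slc5a11 and Eml1 did so as well, and Ftl1, Fth1, Arl6ip1, Rogdi, Mlf2 and Cd9 rose. Of 20 cytosolic tRNA synthetases 10 fell with LY in the presence of FGF4, of 15 ATF4 genes 6 (median -1.60) and of 20 cholesterol genes 4 (median -1.49), against a median of -0.24 over all genes.

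A test of the difference between the LY effects with and without FGF4 called 6 genes (0.0499%), and 1 of them was among the 45. That gene was Rcc2, at 383 ± 143 TPM in DMSO, 52.8 ± 28.8 with LY, 50.4 ± 24.2 with FGF4 and 108 ± 90.3 with both (interaction 3.87, SE 0.62, adjusted p = 0.00483). Rcc2 was thus lower with LY in the absence of FGF4, and in its presence the LY effect was 0.88 (adjusted p = 0.254). Sox17, Lmo2, Wipi2 and Cdk2ap1 passed without FGF4 and not with it, but the difference itself did not pass for any of them (interaction adjusted p = 0.143, 0.198, 0.428 and 0.555).

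**Figure D4:**
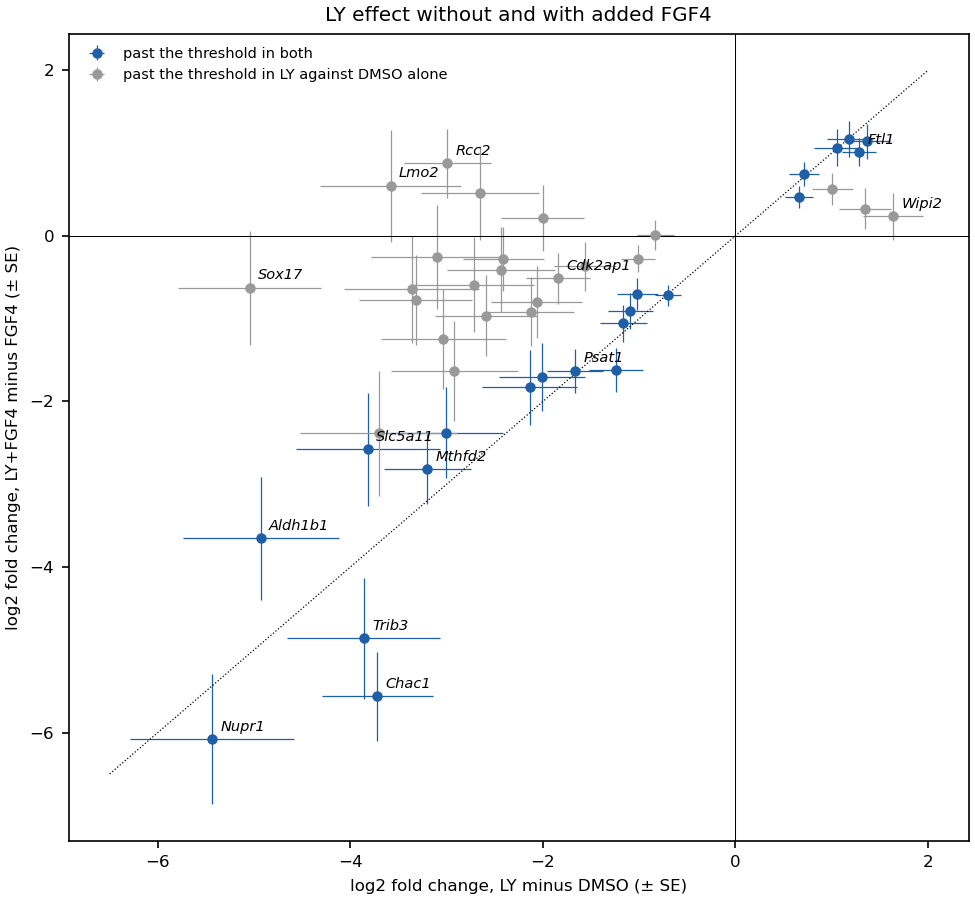
The 45 genes that passed in LY against DMSO are placed by their log2 fold change without FGF4 (x axis) and with FGF4 (y axis), with SE bars. The 21 genes that passed in both (blue) have the same sign on both axes, and Rcc2 lies above 0 on the y axis, at 0.88.

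Depth differed between the groups and was set beside the results. With the 2 deepest DMSO libraries (replicates 3 and 9) left out, 11 genes passed, 9 of them among the 45 (Nupr1, Sox17, Aldh1b1, Mthfd2, Rcc2, Capsl, Ftl1, Arl6ip1 and Wipi2), all 45 kept their sign, and the changes were a median of 0.96 times as large. With estimated read numbers added to the model as a covariate, 8 genes passed, 7 of them among the 45. Capsl, which entered the test only through DMSO, is counted among the 9 and among the 7, and its call is no support for a difference. Without the 2 libraries the list medians were -1.52 for cholesterol synthesis, -0.74 for serine and one-carbon genes, -0.65 for amino acid transporters, -0.65 for the ATF4 response and -0.34 for cytosolic tRNA synthetases, against -0.03 over all genes. With estimated reads as a covariate they were, in the same order, -1.28, -0.68, -0.74, -0.58 and -0.34, against 0.05. For cholesterol synthesis the score ranged from 6.52 to 6.77 in DMSO and from 4.73 to 5.74 with LY, and for the ATF4 response from 4.39 to 5.27 and from 3.06 to 3.78.

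**Figure D5:**
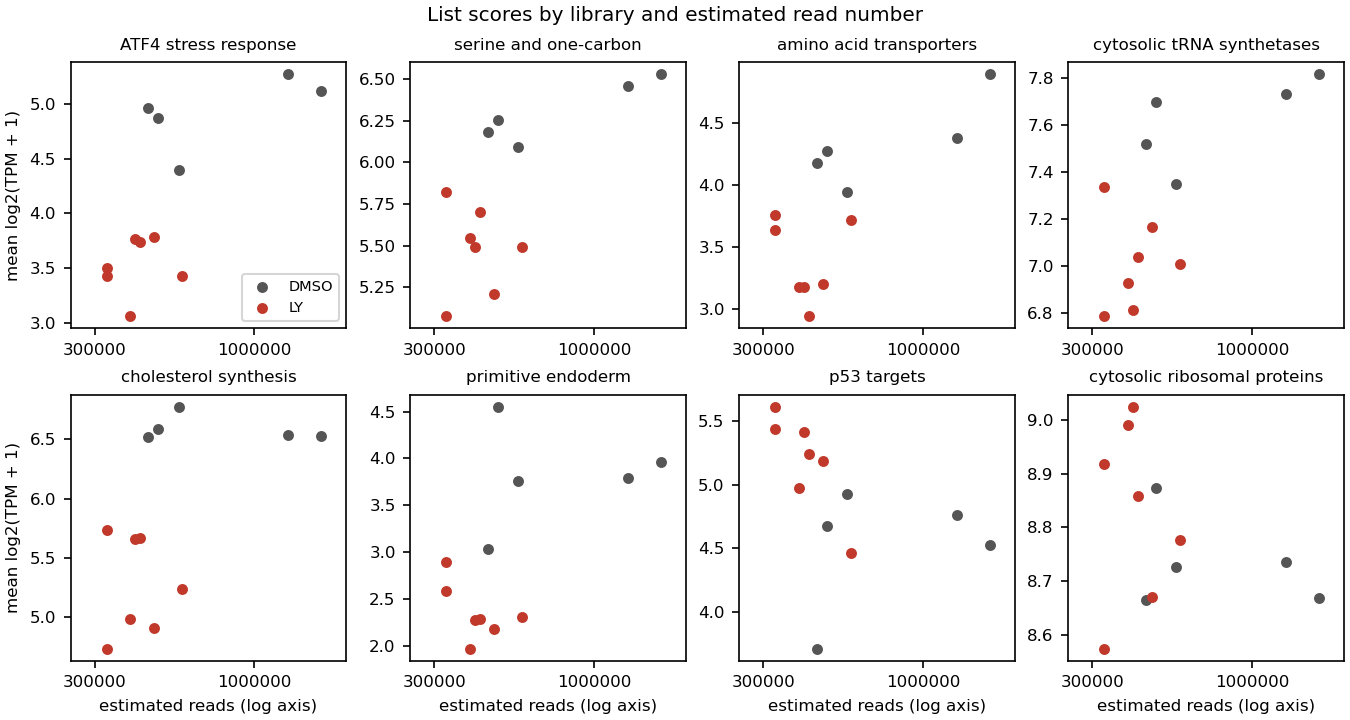
Each point is a library, grey for DMSO and red for LY, with its estimated read number (log axis) and its list score (mean log2(TPM + 1) of tested members). In the ATF4, serine, transporter, tRNA synthetase and cholesterol panels LY libraries lie below DMSO libraries, 2 of which are deeper than all others, and in the ribosomal protein panel the groups overlap.

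A further 21 lists had at least 5 tested members, among them nucleotide synthesis, mitochondrial ribosome, proteasome, actin, WNT and splicing genes. In these lists 1 of 470 members fell (Aldh1b1) and 0 rose, and list medians ran from -0.85 to 0.27. The lowest median was that of formative pluripotency genes (7 tested, 5 lower), and it was -0.25 with estimated reads as a covariate.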

How the data were processed

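FLASH-seq libraries of 26 single mouse ICMs were used as deposited, in 1 table of TPM per gene symbol for 55254 symbols. Per the submitters' processing notes, the authors used STAR, RSEM and the mm10 genome; per the labels, trimming and de-duplication were done. For tool versions, annotation and strandedness, nothing is given in the sources used here. TPM deposited by the authors hold no read number, so precision is set by the spread between ICMs and by an estimate of depth: reads per library were estimated from the spacing of low TPM values of protein-coding genes with 1 annotated transcript, under a searched fragment length.

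Samples were grouped by the treatment in the labels. The 12034 genes that reached 1 TPM in 5 or more libraries entered limma 3.58.1 (R 4.3.3) as log2(TPM + 1), a scale that understates the change of low genes, with 1 mean per group over all 26 libraries, trended and robust empirical Bayes, two-sided tests and Benjamini-Hochberg adjustment over all genes (threshold 0.05). SDs are over ICMs. Each ICM is a separate embryo, and the litter of each is unknown. Replicate numbers recur between groups but no source says that they pair embryos. The script was tested on simulated data, with 40 changed genes per size for LY against DMSO among 12034. It called 57.5% of those changed by -3, 37.5% by -2, 25% by -1, 10% by 1 and 32.5% by 2 on the log2 scale. It also called 7 of 11834 unchanged genes. Many real changes of these sizes may thus be missed. The changed genes were drawn above a minimum level in DMSO and the noise was normal, so the rates do not cover genes near 0.

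The comparison, gene lists and named genes were chosen with earlier results of these data known, so lists are described by counts and medians without a test. The named genes are, by a written rule, up to 25 genes per direction past the threshold with a mean of at least 5 TPM in the higher group (34 genes), 3 members with the smallest p per described list and 20 lineage and pathway genes; predicted, pseudogene and Y-linked symbols were left out. Others, including the 11 remaining genes past the threshold, were named after their values were seen. Alternatives were other pseudocounts (0.1 and 5), filters, scalings, sets of libraries, weights and covariates, and leaving out each library. Coordinates are from GENCODE M21 (GRCm38), which matched 53255 symbols and may differ from the authors' annotation. Promoters are RefSeq windows on GRCm38.p6. Some genes of the lists and of the rule are counted but not reported by name here.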

Additional observations from a re-analysis of the deposited data

Results flagged for a closer look

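Sets of values were taken from the 45 genes past the threshold, DMSO and LY separately, with sets without spread left out. In 86 such sets, 11 single libraries stood apart from the rest of their group by Dixon's criterion on log2(TPM + 1). Of the 11, 8 were LY libraries and 3 DMSO libraries. Chance gives about 1 in 20 for normally distributed values. Where every other library of a set was at 0, any value above 0 meets the criterion, so that rate does not apply. LY replicate 6, the LY library with the most estimated reads (579866), had the only value above 0 among LY libraries for Chac1 (5.64 TPM), Saa3 (5.57), Srl (4.81) and Gm18856 (3.41). LY replicate 5 had the only value above 0 for Scrn2 (2.61) and the highest Fth1 (4344). LY replicate 3 had the only Gm53 value above 0 (2.85) and LY replicate 4 the only Scx value above 0 (1.43). In DMSO, replicate 6 had the lowest Mthfd2 (37), and replicate 8 the highest Scx (14.6) and the highest Ftl1 (2373, still below every LY library).

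The LY effect differed with and without FGF4 in 6 genes by the interaction term of limma. The difference was 3.87 for Rcc2 (adjusted p = 0.00483) and 2.68 for Ybx3, a cold shock domain protein at 381 ± 123 TPM in DMSO, 197 ± 72.8 with LY, 96.5 ± 27.5 with FGF4 and 315 ± 87.2 with both (adjusted p = 0.000455). It was 1.96 for Wac (adjusted p = 0.0213), at 307 ± 47.9, 328 ± 91.4, 280.1 ± 104 and 1113 ± 391 TPM in the same order. It was -4.12 for Kptn (adjusted p = 0.0387), -4.34 for Serhl (adjusted p = 0.0213) and -4.55 for N4bp2 (adjusted p = 0.0278). For Wac, Kptn, Serhl and N4bp2 the LY effect without FGF4 did not pass, and with FGF4 it was 2.03, -3.88, -4.18 and -3.48.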

How the results depend on the processing

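No gene named here changed direction while past the threshold in any setting. The 45 genes of LY against DMSO became 161 in the fit of the 12 libraries, 496 with library weights, 28 with plain empirical Bayes, 19 when the number of genes at 1 TPM was a covariate, 29 with the Y-linked score, 8 with the estimated read number, and 11 without the 2 deepest DMSO libraries (a setting chosen after seeing the data). Leaving out 1 library gave 16 to 49 genes, with 20 without DMSO replicate 3, 27 without replicate 6, 29 without replicate 8 and 16 without replicate 9. The other settings tried gave 39 to 54. Same-numbered libraries did not resemble each other (31 pairs, residual r from -0.082 to 0.068, median -0.0041). With the replicate number as a block, 5 genes passed (Nupr1, Mthfd2, Rcc2, Capsl and Ftl1), 224 for LY+FGF4 against FGF4, and 2 for the interaction. Of the 5, Capsl had entered the test only through DMSO. LY+FGF4 against FGF4, 427 genes, gave 73 in a fit of its own 14 libraries, 111 with library weights and 187 (113 higher and 74 lower) when the number of genes at 1 TPM was a covariate, and 364 to 430 without 1 library. The interaction, 6 genes, gave 2 to 6 without 1 library and 1 without the 2 deepest DMSO libraries. The 282 genes without overlap became 613 without those 2 libraries, as fewer samples make overlap rarer, and 342 to 396 without 1 library. The median change over all genes, -0.10, was 0.05 with either depth covariate (genes at 1 TPM or reads) and -0.03 without the 2 libraries. Causes of the other shifts were not tested. Depth limits genes of a few TPM, where 1 read in an LY library is worth about as much as the value itself.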
